A study of Mus musculus with 6 samples.

Results

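Of the 24422 genes counted in the mouse kidney libraries, 10 are described here. They are the tight junction claudins Cldn1, Cldn2, Cldn3, Cldn4, Cldn5, Cldn6, Cldn7, Cldn8, Cldn14 and Cldn15, taken by symbol. The set leaves out Cldn10, Cldn16 and Cldn19, the claudins of the paracellular pathways of the thick ascending limb, so it holds mainly claudins of the proximal tubule, the collecting duct, vessels and the embryonic kidney. Cldn14 is also known from the thick limb, so the set was defined by its names and not by a measured place of expression. The question was how the messages of these claudins compare between Control and TfR1 knockout kidneys.

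RNA came from whole kidneys of C57BL/6 mice at postnatal day 13 on an iron sufficient diet of 220 ppm. The Control group had 3 kidneys with the genotype given as wild type, and the TfR1 knockout group had 3 kidneys with the genotype Tfr1f/f;SixCre. In the knockout, Six2Cre removes a floxed segment of Tfrc, the gene of the transferrin receptor, from the progenitors that give rise to the nephron. The study describes this deletion as incomplete. Ureteric bud derivatives such as the collecting duct, and also vessels, stroma and blood cells, arise from other lineages and are not targeted by that Cre. The study describes the sequencing controls as wild type littermates, and in other day 13 kidneys it uses that term for Tfr1f/f littermates, so whether these Control mice carried floxed alleles is not settled by the labels.

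Claudins are membrane-spanning proteins that line up in strands between neighboring epithelial or endothelial cells and decide which ions and how much water pass between the cells. Some act as barriers, others form pores selective for cations or anions, and each tubule segment uses its own mixture. In the kidney the proximal tubule carries the cation pore protein claudin-2, while the distal nephron and collecting duct carry the tighter claudins 3, 4, 7 and 8.

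Each library held 16591156 to 22898008 counts of reads on genes, and the first principal component separated the Control from the knockout libraries. Levels are given as normalized read counts, which are the deposited counts divided by a size factor of each library. A gene was called higher or lower when its DESeq2 adjusted p was under 0.05 and its fold change at least 2. The labels check itself was weak, since the normalized read count of Tfrc overlapped between the groups (5229 ± 1434 in Control and 5640 ± 1482 in knockout, SD, n = 3), with a log2 difference of 0.11 (SE 0.29, DESeq2 adjusted p = 0.853). A count over the whole gene, with most exons left in place and other lineages keeping the receptor, checks little. The study also reports nephron cells in this knockout that apparently escaped the deletion and still carried the receptor. The part of each of these in the Tfrc count was not tested.

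The largest differences were seen in Cldn4 and Cldn3, which are neighbors on chromosome 5. In the mm9 build Cldn4 lies at chr5:135420996-135422804 on the minus strand and Cldn3 at chr5:135462084-135463342 on the plus strand, 39.28 kb apart and pointing away from each other. DESeq2 called both genes higher, as well as Cldn7 and Cldn1, and Cldn2 was added as a member that was not called. The 250 bases before the start of each of these genes are shown. They were taken from RefSeq in the GRCm38.p6 build, written 5′ to 3′ on the strand of the gene, at chr5:134946935-134947184 (minus) for Cldn4, chr5:134985964-134986213 (plus) for Cldn3, chr11:69965171-69965420 (plus) for the second of the Cldn7 starts, chr16:26371840-26372089 (minus) for Cldn1 and chrX:139800558-139800807 (plus) for Cldn2. Capitals mark letters that matched a searched motif on either strand.
Cldn4: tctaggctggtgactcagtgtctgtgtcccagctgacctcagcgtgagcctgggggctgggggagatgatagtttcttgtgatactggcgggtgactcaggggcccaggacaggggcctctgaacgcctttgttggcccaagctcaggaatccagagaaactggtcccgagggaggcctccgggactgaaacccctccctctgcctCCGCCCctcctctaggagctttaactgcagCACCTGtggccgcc
Cldn3: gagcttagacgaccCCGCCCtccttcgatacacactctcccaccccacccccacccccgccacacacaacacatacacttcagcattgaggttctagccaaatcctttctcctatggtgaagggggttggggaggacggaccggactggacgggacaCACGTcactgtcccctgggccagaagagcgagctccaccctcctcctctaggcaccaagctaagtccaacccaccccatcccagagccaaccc
Cldn7: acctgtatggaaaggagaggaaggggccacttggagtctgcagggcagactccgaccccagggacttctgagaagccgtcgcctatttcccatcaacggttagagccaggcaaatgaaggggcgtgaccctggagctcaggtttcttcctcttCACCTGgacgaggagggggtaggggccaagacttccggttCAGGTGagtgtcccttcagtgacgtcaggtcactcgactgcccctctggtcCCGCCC
Cldn1: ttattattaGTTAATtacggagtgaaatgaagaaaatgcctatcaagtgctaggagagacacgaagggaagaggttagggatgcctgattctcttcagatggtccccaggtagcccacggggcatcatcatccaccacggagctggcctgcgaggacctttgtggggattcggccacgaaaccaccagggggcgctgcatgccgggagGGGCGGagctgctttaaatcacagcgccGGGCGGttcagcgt
Cldn2: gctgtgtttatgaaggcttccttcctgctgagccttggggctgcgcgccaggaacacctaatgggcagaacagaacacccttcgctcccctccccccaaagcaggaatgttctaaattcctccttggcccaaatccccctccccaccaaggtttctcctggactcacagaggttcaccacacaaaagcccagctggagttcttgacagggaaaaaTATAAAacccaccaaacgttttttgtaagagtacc

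The searched motifs were GGGCGG (Sp1), CAGGTG (the E-box of Snail factors), ACGTG (the core of HIF sites), AACNGGTT (Grainyhead-like factors), GTTAAT (an HNF1 core) and TATAAA (the TATA box), on both strands, and none of them contains another. An entry was found for 9 of the 10 members, all but Cldn8. GGGCGG was found before 7 of these genes, Cldn1, Cldn3, Cldn4, Cldn5, Cldn6, Cldn7 and Cldn15, and before 32.7% of all 32851 entries of the same length. CAGGTG was found before Cldn4, Cldn6, Cldn7 and Cldn14 and in 17.2% of all entries. ACGTG stood before Cldn3 alone (16.6% of all entries), AACNGGTT before Cldn5 alone (1.79%), TATAAA before Cldn2 alone (12.4%) and GTTAAT before Cldn1 and Cldn14 (6.43%). None of the motifs was found before all of the 4 called members except GGGCGG, which also stood before 3 members that were not called. A gene was counted where any of its entries matched, while the shares are per entry. Cldn7 has 2 entries. The Cldn7 entry shown held CAGGTG and GGGCGG, and the other, not shown, held none of the motifs. Cldn14 has 3, of which 1 held CAGGTG and 1 GTTAAT. Cldn7 and Cldn14 therefore had more chances than the shares of single entries reflect. These matches describe letters and not binding.

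Cldn4, a distal nephron and collecting duct claudin that pairs with claudin-8 in a paracellular chloride pathway, showed the largest fold change of the 10. Its normalized read counts were 1067, 1165 and 815.9 in Control kidneys 1 to 3 and 5415, 5221 and 4115 in knockout kidneys 1 to 3. Every knockout kidney lay more than 3-fold above every Control kidney. Cldn4 rose 4.84-fold, a log2 difference of 2.27 (SE 0.21, 95% interval 1.86 to 2.69, DESeq2 adjusted p = 1.01e-23), and edgeR also called it (edgeR adjusted p = 0.00245). Leaving out any 1 library kept the log2 difference between 2.14 and 2.39.

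Cldn3, a barrier-forming claudin of the distal nephron and collecting duct, had normalized read counts of 274.6, 314.5 and 190.5 in Control and 1142, 973.6 and 1174 in the knockout. The knockout kidneys lay close together, and the lowest of them was far above the highest Control. Cldn3 rose 4.21-fold, a log2 difference of 2.08 (SE 0.24, 95% interval 1.61 to 2.54, DESeq2 adjusted p = 8.56e-16; edgeR adjusted p = 0.00441). Of its exon bases, 40 (3.18%) are shared with the antisense gene Wbscr25, and the strand setting of the counting is not given in the sources used here.

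Cldn7, which lies along the lateral membrane of collecting duct and distal cells, had normalized read counts of 1078, 1024 and 643.7 in Control and 2130, 1622 and 1905 in the knockout. The groups did not overlap, and Control 3 was the lowest. Cldn7 rose 2.06-fold, a log2 difference of 1.04 (SE 0.25, 95% interval 0.55 to 1.54, DESeq2 adjusted p = 0.000748; edgeR adjusted p = 0.0387). This value sits at the 2-fold threshold: it was 0.84 without Control 3 and 0.95 without knockout 1, which ended the call although the DESeq2 adjusted p stayed at 0.0003 and 0.00881.

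Cldn1, best known as the barrier claudin of the epidermis and present in the kidney in the lining of Bowman's capsule, had normalized read counts of 808.0, 690.8 and 808.4 in Control and 1594, 1077 and 2954 in the knockout. All knockout kidneys were above all Controls, but knockout 3 stood well above the other knockouts. Cldn1 rose 2.44-fold by DESeq2, a log2 difference of 1.29 (SE 0.36, 95% interval 0.59 to 1.99, adjusted p = 0.00445). It was not called by edgeR (edgeR adjusted p = 0.0713), and without knockout 3 the log2 difference was 0.80 (DESeq2 adjusted p = 0.0338), under 2-fold. Cldn1 lies 6.24 Mb from the targeted Tfrc on chromosome 16, and the neighboring Cldn16 at 6.13 Mb. The members Cldn5, Cldn8 and Cldn14 lie on the same chromosome, at 13.83, 55.93 and 61.29 Mb from Tfrc, and were not called.

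**Figure D1:**
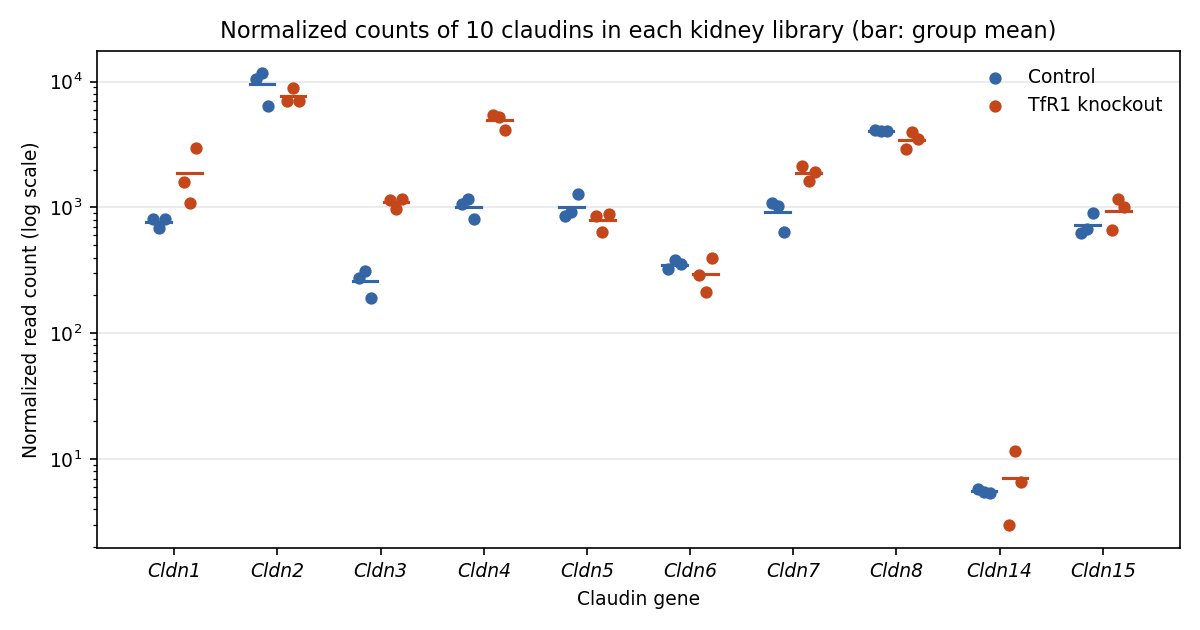
Normalized read count (log scale, vertical axis) of each of the 10 claudins (horizontal axis) in 3 Control (blue) and 3 TfR1 knockout (orange) kidneys, with each point a library and each bar a group mean. The orange points of Cldn1, Cldn3, Cldn4 and Cldn7 lie above all blue points, those of Cldn8 lie below them, and Cldn14 is at 2.98 to 11.5 normalized read counts.

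Cldn8, the collecting duct partner of claudin-4, was not called. Its normalized read counts were 4149, 4068 and 4023 in Control and 2940, 3970 and 3475 in the knockout. All knockout values were lower than all Control values, but knockout 2 by little. The log2 difference was -0.24 (SE 0.17, 95% interval -0.57 to 0.10), and it did not pass the test (DESeq2 adjusted p = 0.378). The interval leaves room for a fall of up to 0.57 on the log2 scale and lies far from the rise of Cldn4. Within each library, the ratio of Cldn4 to Cldn8 (normalized counts per kilobase of exon) was 0.335, 0.373 and 0.264 in Control and 2.40, 1.71 and 1.54 in the knockout. Cldn8 was thus above Cldn4 in every Control kidney and below it in every knockout kidney.

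Cldn2, the cation and water pore of the proximal tubule, had the highest counts of the 10. They were 10468, 11632 and 6407 in Control and 7025, 8962 and 6968 in the knockout, and the groups overlapped, Control 3 being the lowest of all 6. The log2 difference was -0.31 (SE 0.26, 95% interval -0.83 to 0.21, DESeq2 adjusted p = 0.47). Without Control 3 the log2 difference was -0.53 (DESeq2 adjusted p = 0.0461), still under 2-fold, and without Control 2 it was -0.15 (DESeq2 adjusted p = 0.843).

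Cldn5, the barrier claudin of endothelial cells, had normalized read counts of 849.3, 916.2 and 1275 in Control and 861.2, 637.1 and 891.1 in the knockout, with overlap. Its log2 difference was -0.35 (SE 0.24, 95% interval -0.82 to 0.13, DESeq2 adjusted p = 0.371). Cldn15, a cation pore claudin known from the intestine, had 626.6, 672.6 and 895.6 in Control and 663.3, 1171 and 1001 in the knockout. The groups overlapped, and its log2 difference was 0.37 (SE 0.27, 95% interval -0.17 to 0.91, DESeq2 adjusted p = 0.398).

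Cldn6, a claudin of embryonic and neonatal epithelia, was still present at this age. Its normalized read counts were 321.6, 379.0 and 354.1 in Control and 288.4, 211.1 and 393.5 in the knockout. The groups overlapped and knockout 3 was the highest of all, with a log2 difference of -0.24 (SE 0.27, 95% interval -0.78 to 0.30, DESeq2 adjusted p = 0.621). In the mm9 annotation Cldn6 ends 139 bases from Cldn9, which lies on the other strand.

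Cldn14, which inhibits the cation pathway of claudins 16 and 19 under control of the calcium-sensing receptor, was barely detected. It had 7, 6 and 5 raw counts in Control and 3, 9 and 7 in the knockout, of 16591156 or more counts per library. A difference was not detectable at this depth: the log2 value was 0.32 with an SE of 0.90 (95% interval -1.44 to 2.09, DESeq2 adjusted p = 0.858), its sign turned to -0.20 without knockout 2, and edgeR left the gene out as too low.

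**Figure D2:**
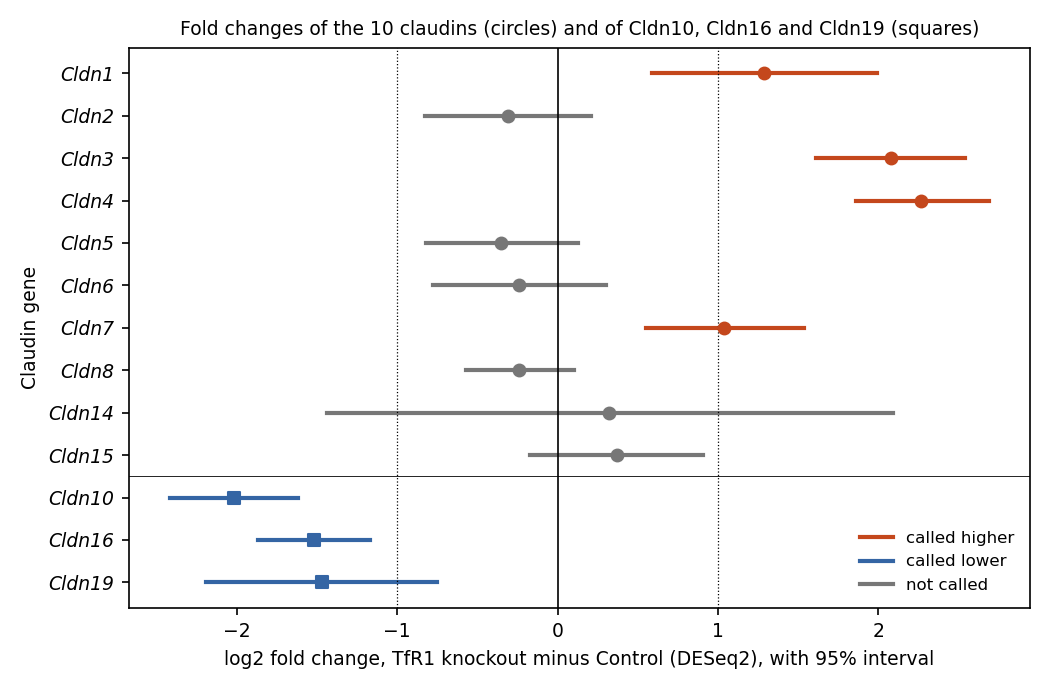
Log2 fold change of TfR1 knockout over Control from DESeq2 (horizontal axis) with its 95% interval for the 10 claudins (circles) and for Cldn10, Cldn16 and Cldn19 (squares), with dotted lines at 2-fold. Cldn1, Cldn3, Cldn4 and Cldn7 were called higher, from 1.04 to 2.27, the other 6 lie between -0.35 and 0.37, and the squares lie at -2.02, -1.52 and -1.47.

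In all, 4 of the 10 claudins were called higher by DESeq2, where 4.41% of the 16509 genes tested were. None was called lower by DESeq2 or edgeR, and 0 were lower at an unadjusted p under 0.05 by either tool, while 4.46% of all genes tested were called lower by DESeq2 and 2.31% by edgeR. With edgeR, 3 of the 9 claudins tested were called higher (Cldn3, Cldn4 and Cldn7), against 2.48% of 15308 genes. The groups did not overlap in 5 of the 10, with 4 higher and 1 lower, and in 16.9% of all genes tested in each direction. The median log2 difference was 0.35 over the 10 claudins and 0.007 over all genes tested. Scaling by total counts moved the median of all genes by -0.105, and the log2 difference of Cldn7 then fell short of 2-fold at 0.96 (DESeq2 adjusted p = 0.00405), while Cldn1, Cldn3 and Cldn4 were still called. The members were named with earlier results of these kidneys known, so these counts are a description of the 10.

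The makeup of the claudin pool was compared per kilobase of exon, since the exons of the 10 genes run from 1.259 to 3.325 kb. In Control kidneys the order of these levels was Cldn2 (2858 ± 825 normalized counts per kb, SD, n = 3), Cldn8 (1732 ± 27.2), Cldn5 (717 ± 162), Cldn4 (562 ± 99.6), Cldn7 (470 ± 122), Cldn15 (344 ± 67.7), Cldn1 (237 ± 20.9), Cldn6 (233 ± 19.1), Cldn3 (206 ± 50.3) and Cldn14 (2.81 ± 0.105). The libraries of neighbors in this order did not overlap between Cldn2 and Cldn8, Cldn8 and Cldn5, Cldn15 and Cldn1, and Cldn3 and Cldn14, and the other neighbors did not differ beyond their spread. In knockout kidneys the order was Cldn4 (2718 ± 388), Cldn2 (2301 ± 342), Cldn8 (1469 ± 219), Cldn7 (968 ± 131), Cldn3 (871 ± 85.4), Cldn1 (578 ± 299), Cldn5 (563 ± 98.2), Cldn15 (445 ± 122), Cldn6 (198 ± 60.8) and Cldn14 (3.58 ± 2.18). Here Cldn2 and Cldn8, Cldn8 and Cldn7, Cldn15 and Cldn6, and Cldn6 and Cldn14 did not overlap, while Cldn4 and Cldn2 did.

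By mean level, Cldn4 thus went from rank 4 to rank 1 and Cldn3 from rank 9 to rank 5. As a share of the summed per-kilobase level of the 10 claudins, Cldn4 made up 7.73%, 7.98% and 7.07% of the pool in Control kidneys and 30.1%, 27.9% and 22.7% in knockout kidneys. Cldn2 went the other way, with 41.3%, 43.3% and 30.2% in Control and 22.7% ± 2.88 (SD, n = 3) in the knockout. Its share was lower in every knockout kidney than in any Control, although Cldn2 itself was not called. The pool itself was larger, at 6377 to 8077 normalized counts per kb in Control and 9959 to 10352 in the knockout. Cldn8 held 23.7% ± 2.76 of the pool in Control and 14.5% ± 1.88 in the knockout, and Cldn3 held 2.78% ± 0.367 and 8.62% ± 1.00. The ratio of Cldn4 to Cldn2 per kilobase was 0.187, 0.184 and 0.234 in Control and 1.42, 1.07 and 1.09 in the knockout, with no overlap. Transcript levels, and not the proteins in the junction, are compared here.

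**Figure D3:**
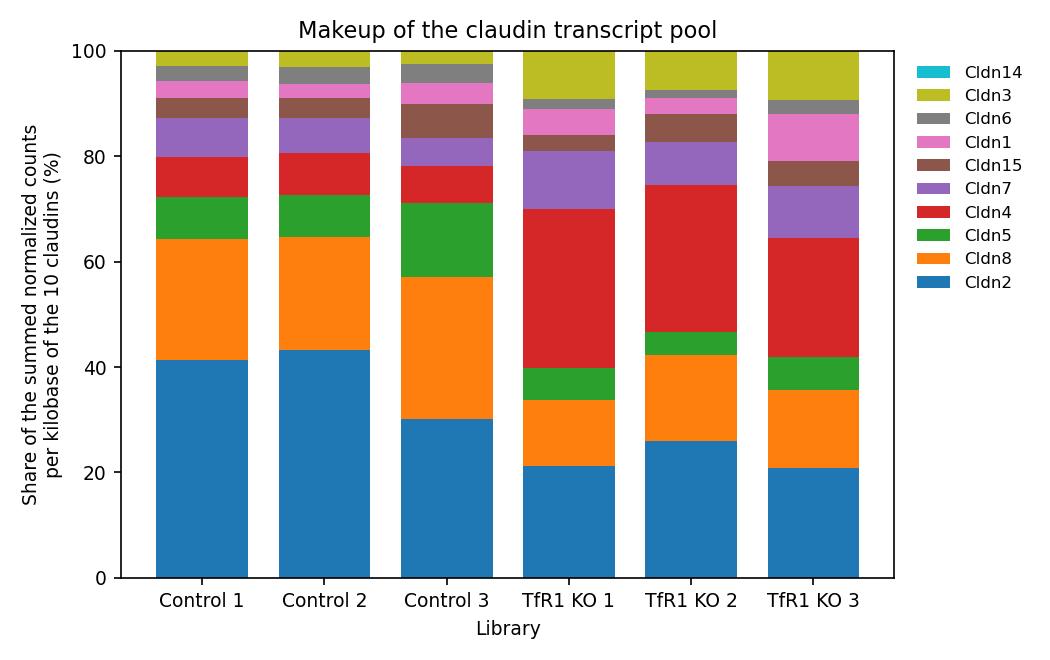
Share (%, vertical axis) of each claudin in the summed normalized counts per kilobase of exon of the 10 claudins, for each of the 6 libraries (horizontal axis). The Cldn4 segment covers 7.07% to 7.98% in Control and 22.7% to 30.1% in knockout kidneys, and Cldn14, under 0.1%, is too thin to see.

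Whole kidney RNA mixes cell types, and fewer cells of a type cannot be told apart from less RNA per cell. Markers of several segments moved with the genotype. Of 11 collecting duct principal cell markers, 2 were called higher and 0 lower by DESeq2 (edgeR 1 and 0; 7 higher and 0 lower at an unadjusted p under 0.05 by both tools). Their summed level was 12404 to 23002 normalized counts in Control and 41080 to 69294 in the knockout. The largest part of that difference came from the water channel gene Aqp2, at 4579 ± 1881 in Control and 30696 ± 17578 in the knockout. The median log2 difference of the 11 markers was 0.65. Of 11 tubule injury markers, 8 were called higher and 0 lower by DESeq2 (edgeR 6 and 0; 0 lower at an unadjusted p under 0.05 by both tools), and their sum was 44159 to 51412 in Control and 109129 to 179017 in the knockout. The largest part of that difference came from Spp1, at 31169 ± 2975 in Control and 107991 ± 24851 in the knockout. The injury list includes Krt8, which the study also uses as a collecting duct marker, so it is not separate from that cell type. Cldn3, Cldn4 and Cldn7 were set against the collecting duct markers within each library. The part of the injury markers in any rise, and of either list in that of Cldn1, was not tested.

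Markers of the tubule segments that arise from the nephron progenitors were called lower more often than higher. For the proximal tubule, 1 of 12 was called higher and 4 lower by DESeq2 (edgeR 1 and 3), and the other 7 were not called. The endocytic receptor gene Lrp2 was at 21473 ± 7433 in Control and 7700 ± 2736 in the knockout and was called lower by DESeq2 only (edgeR adjusted p = 0.0537). The 1 higher marker was the organic anion transporter gene Slc22a6, at 2693 ± 1296 and 9321 ± 1646. The sum of the list was 124494 to 310482 in Control and 61676 to 99323 in the knockout, with the largest part of the difference from Kap, at 113161 ± 59298 and 9217 ± 3036. For the thick ascending limb, 6 of 8 were called lower (edgeR 5), with Umod at 39215 ± 14669 and 3126 ± 1431, and a sum of 50399 to 117319 and 14536 to 27395. All 3 markers of the distal convoluted tubule were called lower by both tools, with Slc12a3 at 17080 ± 5621 and 1081 ± 505.7, and a sum of 11272 to 22529 and 736.0 to 1783. Of 13 endothelial markers, 0 were called by DESeq2 or edgeR (1 higher and 0 lower at an unadjusted p under 0.05 by each), and their sum overlapped between the groups, at 29748 to 45928 in Control and 31378 to 40886 in the knockout. The endothelial adhesion gene Pecam1 was at 3875 ± 1265 in Control and 4324 ± 831.2 in the knockout. Among the Controls, Control 3 had the lowest mean log2 level of proximal tubule, thick limb and collecting duct markers. It had the highest of the endothelial markers. Control 3 was also the lowest Control for Cldn2, Cldn3, Cldn4 and Cldn7 and the highest for Cldn5 and Cldn15. Without it, Cldn3 and Cldn4 were still called, at log2 differences of 1.89 and 2.14. Whether its tissue makeup differed was not tested.

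Other cell types were read from shorter lists. Of 7 intercalated cell markers, 1 was called higher and 3 lower (edgeR 0 and 3), of 5 stromal markers 0 and 1 (edgeR 0 and 0), and of 4 macrophage markers 2 and 0 by both tools. Podocyte markers (Wt1) and nephron progenitor markers (Eya1) had 1 of 7 called higher each by both tools and 0 lower. Of 6 urothelial markers, 0 were called by either tool, with 1 higher and 0 lower at an unadjusted p under 0.05. Their sum was 873.2 to 1681 in Control and 1518 to 2084 in the knockout. No marker in any list had 3 or fewer counts in every library.

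To set a claudin beside a segment it is known from, the mean log2 level of the segment's markers was subtracted from the claudin's. This was done in each library, after adding 1 to the normalized counts. Cldn3, Cldn4, Cldn7 and Cldn8 are also known from the distal nephron. They were set against collecting duct markers only, and the part of distal nephron cells in their levels was not tested. Against the 11 collecting duct markers, Cldn4 was at -0.43, -0.24 and -0.12 in Control and 1.39, 1.49 and 1.29 in the knockout. Cldn4 therefore stood 1.65 higher relative to these markers in the knockout, less than its own log2 difference of 2.27. For Cldn3 the values were -2.39, -2.12 and -2.21 in Control and -0.86, -0.94 and -0.52 in the knockout, a difference of 1.47. For Cldn7 they were -0.42, -0.42 and -0.46 against 0.04, -0.20 and 0.18, a difference of 0.44. In all 3 claudins the groups did not overlap, and 2.37% of all genes tested were likewise higher without overlap relative to these markers. Leaving Aqp2 out of the markers made the differences larger, at 1.86 for Cldn4, 1.68 for Cldn3 and 0.65 for Cldn7.

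Cldn8 was lower relative to the same markers in the knockout. It was at 1.52, 1.56 and 2.18 in Control and 0.51, 1.09 and 1.05 in the knockout, a difference of -0.88 without overlap (-0.67 without Aqp2). In 52.5% of all genes tested the level was lower in the same way, so this direction, opposite to that of Cldn3, Cldn4 and Cldn7, was the common one among genes. Cldn2 relative to 12 proximal tubule markers was at -0.09, 0.04 and 0.14 in Control and 0.61, 1.21 and 1.38 in the knockout, a difference of 1.03. This was shared by 60.6% of all genes tested, and with the median of the markers in place of their mean the difference was only 0.09. Cldn5 relative to 13 endothelial markers was at -1.21, -1.04 and -1.18 against -1.25, -1.89 and -1.53, a difference of -0.41, with 11.7% of all genes lower without overlap. For Cldn14 relative to 8 thick limb markers the difference was 2.37, resting on 3 to 9 counts, and 79.5% of all genes tested were higher in that way. A two-sided exact permutation test gave p = 0.1 in each of these 7 comparisons (adjusted 0.1), the smallest that 3 against 3 libraries allow, so none could pass 0.05.

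**Figure D4:**
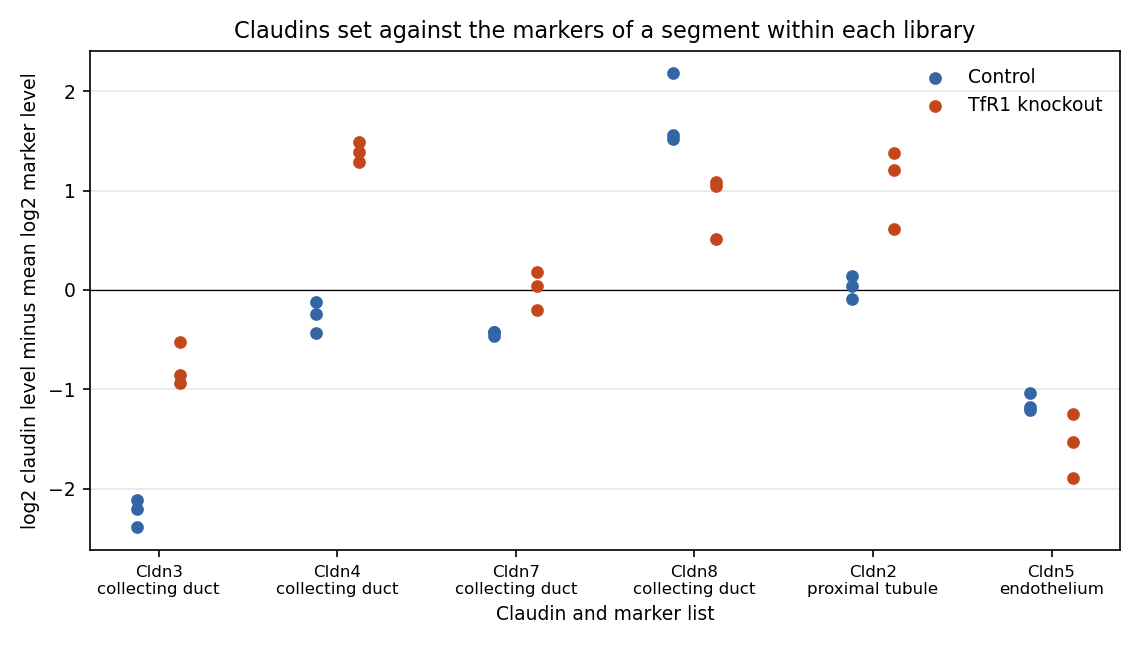
Log2 level of a claudin minus the mean log2 level of the markers of a segment it is known from (vertical axis). Points are 3 Control (blue) and 3 TfR1 knockout (orange) libraries, for 6 pairs of claudin and marker list (horizontal axis). Cldn3, Cldn4 and Cldn7 lie higher in the knockout against collecting duct markers, by 1.47, 1.65 and 0.44, and Cldn8 lies lower, by 0.88.

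The claudins of the thick limb, left out of the set, were lower in the knockout, opposite to the called members Cldn1, Cldn3, Cldn4 and Cldn7. Cldn10, whose product forms a cation pathway in the thick limb, was at 3580 ± 346.9 in Control and 884.2 ± 170.9 in the knockout and fell by 2.02 on the log2 scale (SE 0.20, DESeq2 adjusted p = 1.25e-20; edgeR adjusted p = 0.00252). Cldn16 and Cldn19, the pair that carries calcium and magnesium, fell by 1.52 and 1.47 (DESeq2 adjusted p = 4.71e-15 and 0.00124), and edgeR called Cldn16 (edgeR adjusted p = 0.00442) but not Cldn19 (edgeR adjusted p = 0.0554). The summed level of the thick limb markers moved the same way, as given with the markers, and its part in these falls was not tested.

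Including these 3, 15 other claudins were listed, of which 13 were found and 8 tested by DESeq2, with 2 called higher and 4 lower (edgeR 0 and 2). Cldn9 was at 29.3 ± 8.66 in Control and 86.0 ± 39.9 in the knockout, a log2 difference of 1.55 (DESeq2 adjusted p = 0.0108), and Cldn23 at 14.1 ± 4.42 and 41.5 ± 7.90, a difference of 1.56 (DESeq2 adjusted p = 0.0126). Cldn11, a claudin of myelin and of the testis, was lower, at 475.8 ± 136.3 and 120.3 ± 100.5, by -1.98 (DESeq2 adjusted p = 0.00635). These 3 calls were not made by edgeR. They were also lost when single libraries were left out, with a DESeq2 adjusted p of 0.057 (without Control 1), 0.0632 (Control 3) and 0.166 (knockout 3) for Cldn9, and of 0.0551 (Control 3) and 0.0545 (knockout 3) for Cldn11. For Cldn23 it was 0.134 without Control 1, 0.0704 without Control 3, 0.0695 without knockout 2 and 0.139 without knockout 3. Cldn18 and Cldn24 had 3 or fewer counts in every library.

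Beyond the claudins, most genes of the junction were not called. Of 11 other junction membrane proteins, Jam2 was called higher by both tools, at 515.4 ± 154.5 in Control and 1279 ± 339.2 in the knockout, a log2 difference of 1.31 (SE 0.30, DESeq2 adjusted p = 0.00034). Jam2 is an adhesion molecule of endothelial and other junctions. None of these 11 was called lower by DESeq2 or edgeR. At an unadjusted p under 0.05, each tool had 6 higher and 2 lower. At a DESeq2 adjusted p under 0.05 and any size of change, 5 were higher (Jam2, F11r, Marveld2, Ildr1 and Cxadr) and 2 lower (Ildr2 and Jam3), all but Jam2 by less than 2-fold. Among 19 scaffold and polarity genes, which tie claudins to the cytoskeleton, 0 were called by either tool, and 2 (DESeq2) or 1 (edgeR) were higher and 0 lower at an unadjusted p under 0.05. Among 12 adherens junction and desmosome genes 0 were called by either tool, with 4 higher and 1 lower (DESeq2) or 3 and 1 (edgeR) at an unadjusted p under 0.05.

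Of 21 genes known to act on claudins, 3 were called lower by DESeq2 and 2 by edgeR. Epcam, which binds claudin-7, was not called (0.37, SE 0.22, DESeq2 adjusted p = 0.27). Elf3, an epithelial transcription factor, rose by 1.37 (SE 0.34, DESeq2 adjusted p = 0.00111) but was not called by edgeR (edgeR adjusted p = 0.0525).

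Klhl3, the adaptor of an E3 ligase that acts on WNK kinases and on claudin-8, was at 288.3 ± 58.5 in Control and 130.3 ± 32.8 in the knockout, a fall that both tools called, by 1.15 on the log2 scale (SE 0.29, DESeq2 adjusted p = 0.00126). Wnk1, a kinase that acts on distal salt transport, was at 14403 ± 2499 and 6748 ± 1783, and its log2 difference was -1.09 (SE 0.25, DESeq2 adjusted p = 0.000322). It was called by both tools but lay under 2-fold without Control 2 (-0.98) and without knockout 3 (-0.95). The summed level of the distal convoluted tubule markers was also lower, as given with the markers. Its part in the falls of Klhl3 and Wnk1 was not tested. Snai1, a transcriptional repressor of epithelial genes, was lower by 1.18 (DESeq2 adjusted p = 0.036), was not called by edgeR, and kept its call in 1 of the 6 fits that left out a library. The DESeq2 adjusted p of Snai1 was 0.0793, 0.0509 and 0.206 without Control 1, 2 and 3, and 0.136 and 0.116 without knockout 2 and 3.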

How the data were processed

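Poly-A libraries from 6 whole kidneys were sequenced as single-end 100-base reads. Per the labels and the study's methods, the authors processed them with CASAVA 1.8.2, Trimmomatic, TopHat2 2.0.11 (mm9) and HTSeq, and deposited whole-number raw counts of uniquely mapped reads per gene, with no normalization. Unique mapping lowers counts of near-identical genes, but 0 of the 100-base windows in the coding transcripts of the 10 claudins were shared with another gene. The annotation and strand setting are not given in the sources used here.

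The deposited counts (16591156 to 22898008 per library) were compared between 3 Control and 3 knockout kidneys with the DESeq2 1.42.0 Wald test in R 4.3.3 (median-ratio size factors, Benjamini-Hochberg adjustment, independent filtering at 0.05). Of 19985 genes with a count, 16509 had an adjusted p, the lowest mean tested was 3.51 normalized counts, and 29 genes had no p because of outlier counts. The p-values weigh a difference against the spread among these 3 kidneys a group, which DESeq2 estimates with information shared across genes. Called genes had an adjusted p under 0.05 and an unshrunken change of at least 2-fold, the thresholds that the study states. More genes passed here in each direction than the study reports for its Six2Cre knockout kidneys, and the cause was not tested. Alternatives were the edgeR 4.0.16 quasi-likelihood test with TMM scaling, other scalings and filters, the replicate number as a block, and each library left out. Samples were grouped by their labels. The members, the gene lists and the tests were chosen with earlier results of these data known. Named genes are the 10 members, Cldn10, Cldn16, Cldn19, Tfrc, the called genes of each pathway list (at most 4 a direction), set marker genes, and genes at 3 or fewer counts. A result that these rules would name is not reported here. Epcam, Wt1, Eya1, Slc22a6, Kap, Spp1, Krt8 and the junction membrane genes other than Jam2 were named in addition, after their values were seen. Positions came from GENCODE vM1 (mm9) and promoter sequences from RefSeq (GRCm38.p6).

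The fit was tested on simulated data with 200 of 19985 genes changed. In this test a gene counted as found at an adjusted p under 0.05 alone, with no rule on fold change. DESeq2 found 53.9% of the 2-fold and 87.8% of the 4-fold genes, and 25% of its 188 hits were false. For edgeR these values were 30.4%, 80.6% and 4.35% of 115 hits. In the kidneys DESeq2 called 728 genes higher and 736 lower, under the added 2-fold rule. The simulated shares therefore do not carry over to those calls.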

Additional observations from a re-analysis of the deposited data

How the results depend on the processing

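The number of claudins called higher was 3 or 4 and the number called lower was 0 under every alternative run. Of 118 values of single claudins under these alternatives, 112 kept their direction and their side of the threshold, 5 kept the direction but were no longer called (Cldn1 and Cldn7), and 1 reversed, Cldn14, at -0.20 without knockout 2 and 0.70 without knockout 1, on single-digit counts. Over all genes, edgeR called 380 higher and 353 lower, fewer than the 728 and 736 of DESeq2. Leaving out each library gave 537 to 821 genes higher and 498 to 1146 lower, the last without knockout 1. The cause was not tested. The median log2 difference of the 10 claudins was 0.35 and ranged from 0.08 without knockout 2 to 0.63 without knockout 1. All 60 alternative values of claudin levels relative to markers kept their direction, with Cldn2 near 0 (0.09) under the marker median. The marker median and the removal of Aqp2 were chosen after seeing the data. With a replicate block, DESeq2 called 4 claudins higher and 0 lower, and 658 genes higher and 750 lower. Samples with the same number deviated from their group means with correlations of -0.0378, 0.0548 and 0.0899, which gave no ground to treat equal numbers as pairs. Without single libraries the log2 difference of Cldn5 (-0.35) was -0.15 (Control 3) and -0.20 (knockout 2), that of Cldn6 (-0.24) was -0.04 (knockout 2) and -0.49 (knockout 3), that of Cldn8 (-0.24) was -0.13 (knockout 1), and that of Cldn15 (0.37) was 0.57 (knockout 1) and 0.19 (knockout 2), none of them called. Cldn14 is limited by depth.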
